A study of Capra hircus with 4 samples.

Results

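The Hippo pathway genes YAP1, WWTR1, TEAD1, LATS1, LATS2, STK3, SAV1 and AMOTL2 were followed across the cell types of the goat ovary and across the states of its granulosa cells (GCs). They were chosen by name, all 8 were found among the 28944 genes of the files, and all 8 passed the filter on low counts. WWTR1 encodes the protein TAZ, and the gene named TAZ in the files is tafazzin and was not used. Single-nucleus RNA was counted in 1 ovary library from each of 2 Du'an goats, a breed whose group had a litter size of 1, and 2 Nubian goats, with a litter size of 3. All 4 goats were about 3 years old and carried a controlled internal drug release device with 300 mg of progesterone for 17 days to synchronise oestrus. The authors' methods name no other hormone. Goats of both breeds had this treatment, and breed and litter size cannot be told apart.

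The Hippo pathway is a kinase cascade that restrains organ growth. The kinase STK3 (MST2), held by the scaffold SAV1, activates the kinases LATS1 and LATS2, which phosphorylate the coactivators YAP1 and TAZ and keep them out of the nucleus. When LATS activity is low, YAP1 and TAZ enter the nucleus and act through TEAD factors such as TEAD1, and angiomotin proteins such as AMOTL2 bind YAP1 and hold it back. In the ovary the pathway is known for its part in follicle growth and in the response to mechanical disruption of the tissue. RNA levels do not report phosphorylation or the place of the proteins in the cell.

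After filtering, 44740 of 48332 nuclei were kept, with 29800057 to 53959284 UMIs and a median of 1755 to 3317 UMIs per nucleus in a library. Pairs of libraries shared 54 to 131 barcodes. The kept nuclei fell into 23 clusters, of which 20 were named from markers, and the names are written as "like" because they rest on those markers. The 9 T or natural killer markers summed to 5811 to 7671 counts-per-million (CPM, UMIs scaled to the total of the same goat and class) in their class and to at most 754 in any other, and the 7 macrophage markers to 2770 to 6025 against at most 116. The 8 blood endothelial markers summed to 3729 to 4702 in their class and also to 1910 to 2179 in the lymphatic endothelial-like class, which alone was high in the 7 lymphatic markers (8065 to 13596). The class named granulosa progenitor-like did not carry the general GC markers to the same extent: the 9 GC markers (FSHR, FOXL2 and others) summed to 1426 to 2153 CPM there, against 5551 to 7646 in the granulosa-like class and 1132 to 1993 in the pericyte-like class. The range of 1426 to 2153 also overlapped those of the theca-like (849 to 1828), both endothelial-like and both immune-like classes. The smooth muscle-like, epithelial-like and ciliated-like classes lay below it, at 1402 or less. The name granulosa progenitor-like rests on the progenitor list alone, for which the naming rule was looser. Whether these nuclei are GCs was not tested. The unnamed clusters 1, 3 and 12 held 6597, 4277 and 1645 nuclei, and ciliated-like nuclei were numerous enough only in Du'an 2 (50) and Nubian 2 (69). Nuclei of 1 goat are not replicates, so all tests compare sums per goat, and classes drawn from other genes of the same nuclei are not independent samples.

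Levels are given as CPM in the order Du'an 1, Du'an 2, Nubian 1 and Nubian 2, and they are compared within a gene and not between genes. Fold changes are fitted log2 folds from 1 class against the mean of the other 10 named classes. They come from edgeR's quasi-likelihood test with a term for each goat, and p-values were adjusted over 13791 genes by Benjamini-Hochberg. The value after ± is an approximate standard error, the size of the fold divided by the square root of the test's F statistic. The folds are scaled by TMM (trimmed mean of M values), so their order need not follow that of the CPM. The mean of the other classes includes the T or natural killer-like and macrophage-like classes. Genes low in both, such as YAP1, TEAD1 and AMOTL2, therefore have higher folds in the rest. Over the 88 combinations of gene and class, 39 passed an adjusted p of 0.05, 23 higher and 16 lower, while 31.1% of all gene and class combinations passed, 19.3% higher and 11.8% lower. Of the 39 calls 25 held in every alternative setting that gave a value, out of 13 settings, 14 were lost in at least 1, and none changed direction.

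The classes differed in how many of the 8 genes passed. In T or natural killer-like nuclei 5 were lower and none higher, where 23.5% of all genes were lower and 28.3% higher, and in macrophage-like nuclei 4 were lower and none higher, where 19.9% were lower and 32.2% higher. In blood endothelial-like nuclei 5 were higher and none lower, where 19.7% of all genes were higher and 6.42% lower. In lymphatic endothelial-like nuclei 4 were higher and none lower (17.5% and 7.01% of all genes), and in smooth muscle-like nuclei 3 were higher and none lower (19% and 7.19%). The granulosa-like class had 3 higher and 1 lower (27.7% and 13.3% of all genes), and the granulosa progenitor-like class 4 higher and 1 lower (19.8% and 13.3%). In ciliated-like nuclei 1 was higher and 2 lower (17.1% and 8.14%), as in theca-like nuclei (9.18% and 12.2%). Fewer passed in the rest, with 1 of each in epithelial-like (14.3% and 11.8%) and 1 higher and none lower in pericyte-like nuclei (7.52% and 6.5%).

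**Figure D1:**
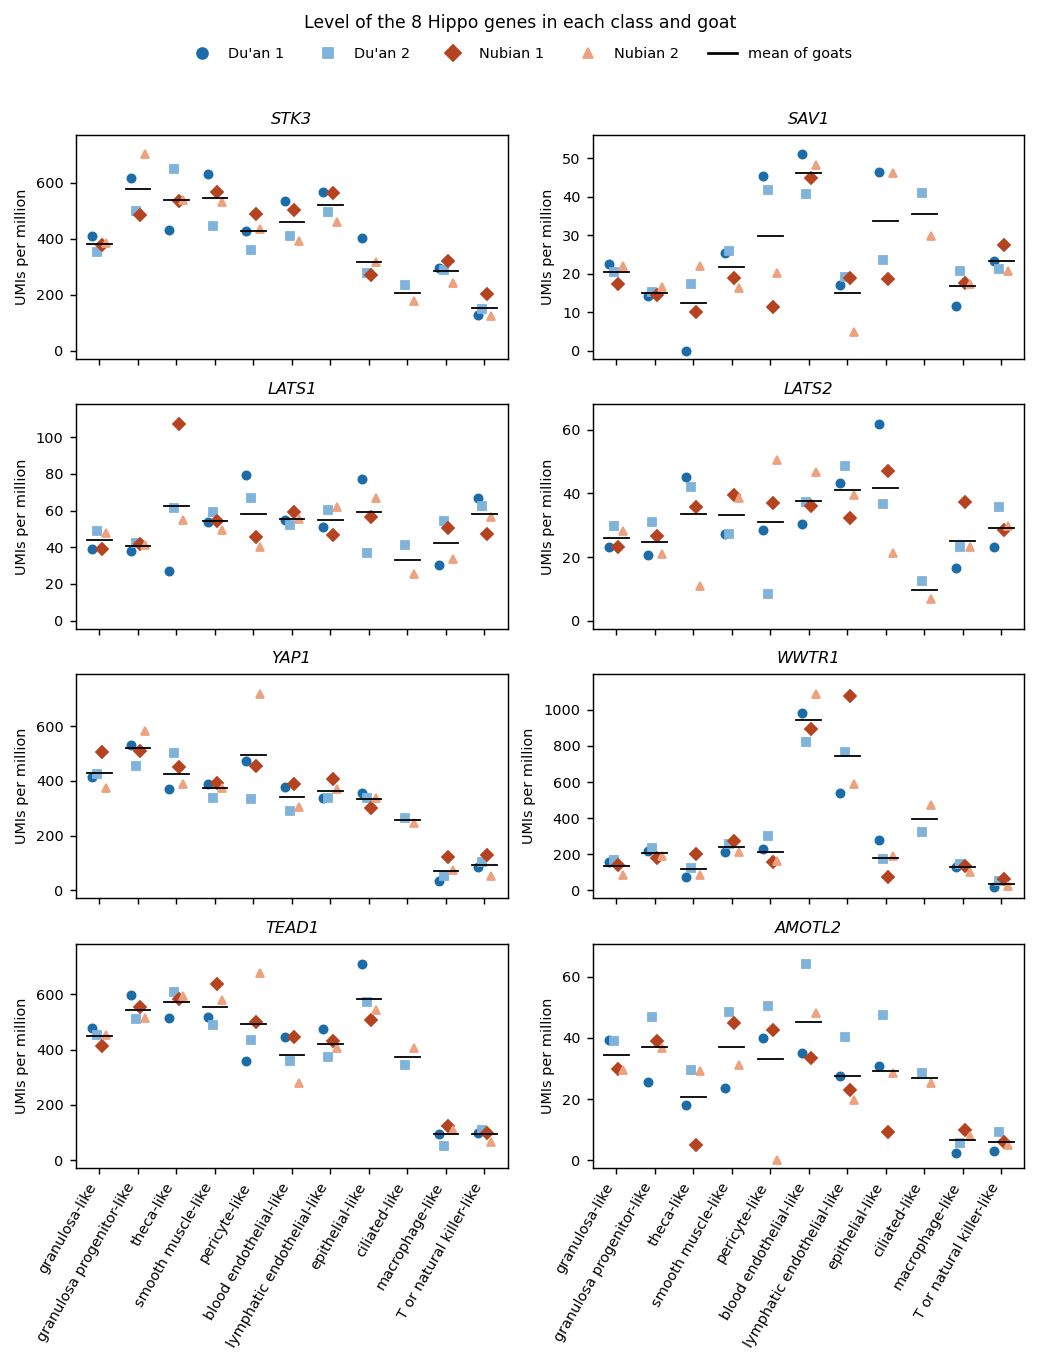
Level of each gene (y axis, CPM) in each class (x axis) with 1 symbol per goat and a line at the mean of the goats. WWTR1 stands at 542 to 1087 in the 2 endothelial-like classes and at 17.5 to 61.2 in T or natural killer-like nuclei. The class means of LATS1 run from 33.1 to 62.7.

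STK3, the kinase at the head of the cascade, was lowest in T or natural killer-like nuclei, at 128, 149.8, 204 and 125 CPM, and it fell by 1.43 ± 0.18 on the log2 scale (adjusted p = 2.55e-09). In this class 51.8% of all genes passed the test. Of the 11 named classes it was highest in granulosa progenitor-like nuclei, at 617, 499.8, 486 and 702 CPM. Its log2 fold there was 0.87 ± 0.15 (adjusted p = 3.02e-06), where 33.1% of all genes passed. Every goat was higher in that class than any goat in the T or natural killer-like class, and the share of all genes with this order is not given. The unnamed cluster 3, which was in the fit, had a mean of 580 CPM against 576 in the progenitor-like class, with a log2 fold of 0.69. STK3 was also higher in lymphatic endothelial-like (0.63, adjusted p = 8.90e-04) and smooth muscle-like nuclei (0.59, adjusted p = 0.00211), and these folds passed in all 13 alternatives. A further 3 calls were less stable. In blood endothelial-like nuclei STK3 was at 533, 411, 504 and 392 CPM (0.40 ± 0.15, adjusted p = 0.0493), and the call was lost in 10 of 13 alternatives, among them without any 1 goat (0.29 to 0.32). In epithelial-like nuclei it was at 402, 278, 272 and 317 CPM (-0.49 ± 0.18, adjusted p = 0.0329), lost in 9 of 13 alternatives, among them without Du'an 1 (-0.47), Du'an 2 (-0.38) or Nubian 1 (-0.30). In ciliated-like nuclei it was at 234 and 177 CPM in 2 goats (-0.67 ± 0.25, adjusted p = 0.0434), lost in 2 of 11 alternatives. The granulosa-like class lay in the middle, at 354 to 412 CPM, and STK3 did not pass there (log2 fold 0.21 ± 0.15, adjusted p = 0.295), nor in macrophage-like (242 to 319 CPM, -0.36), pericyte-like (360.3 to 489.7 CPM, -0.04) or theca-like nuclei (433 to 649 CPM, 0.30).

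SAV1, the scaffold that binds STK3, was counted at low levels in every class, with 3513 UMIs over all kept nuclei. It was highest in blood endothelial-like nuclei, at 51.1, 40.7, 44.9 and 48.3 CPM (log2 fold 1.14 ± 0.19, adjusted p = 1.52e-06), a class in which 26.2% of all genes passed. In lymphatic endothelial-like nuclei it was at 17.1, 19.1, 19.0 and 4.95 CPM. The difference between the 2 endothelial-like classes was 1.42 ± 0.28 on the log2 scale (adjusted p = 7.81e-05). SAV1 alone of the 8 genes passed in that pair, where 15.6% of all genes did. SAV1 was below the mean of the other classes in granulosa progenitor-like nuclei at 14.2 to 16.6 CPM (log2 fold -0.52, adjusted p = 0.0459), a call lost in 7 of 13 alternatives. In theca-like nuclei it had no UMI in Du'an 1 and 17.3, 10.2 and 22.0 CPM in the others, and the call there (adjusted p = 0.0308) was lost in 11 of 12 alternatives.

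LATS1, the kinase that phosphorylates YAP1 and TAZ, passed in none of the 11 classes by edgeR's quasi-likelihood test, nor at an unadjusted p under 0.05, and its log2 folds ran from -0.51 to 0.22. Its class means lay between 33.1 and 62.7 CPM, and none of the 55 pairs of classes differed, a count without a share of all genes beside it. In granulosa-like nuclei it was at 39.3, 48.7, 39.2 and 48.0 CPM, and in T or natural killer-like nuclei at 66.9, 62.7, 47.4 and 56.6 CPM. These ranges overlap. With RLE (relative log expression) scaling the fold in granulosa-like nuclei was -0.33 (adjusted p = 0.0641), and DESeq2 called it lower at -0.32 (adjusted p = 7.53e-04).

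LATS2, its paralog, was higher in lymphatic endothelial-like nuclei, at 43.3, 48.7, 32.4 and 39.6 CPM (log2 fold 0.70 ± 0.20, adjusted p = 0.00476), a class in which 24.6% of all genes passed. Without Du'an 1, Du'an 2 or Nubian 2 this call was lost (0.62, 0.45 and 0.46). In blood endothelial-like nuclei it was at 30.5, 37.2, 36.2 and 46.8 CPM (0.53, adjusted p = 0.0334), and that call was lost in 10 of 13 alternatives, with a log2 fold of 0.13 without Nubian 2. In ciliated-like nuclei the fold of -1.53 (adjusted p = 0.0124; 25.3% of all genes passed) rested on 4 and 3 UMIs in 2 goats, and it did not pass in DESeq2 (adjusted p = 0.0532). In granulosa-like nuclei LATS2 was at 23.1 to 29.7 CPM with a log2 fold of 0.07 that did not pass.

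YAP1, the coactivator that LATS kinases restrain, was, among the 11 named classes, highest in granulosa progenitor-like nuclei and lowest in the 2 immune-like classes. The unnamed cluster 3, which was in the fit, had a higher YAP1 mean (537 against 520 CPM) and a log2 fold of 0.95. YAP1 was at 531, 456, 510.5 and 582 CPM in granulosa progenitor-like nuclei, with a log2 fold of 1.1 ± 0.15 (adjusted p = 5.36e-08). In granulosa-like nuclei it was at 414, 427, 506 and 376 CPM, with 0.80 ± 0.16 (adjusted p = 3.51e-05, where 41% of all genes passed). These 2 classes overlapped and did not pass against each other (difference 0.28 ± 0.23, adjusted p = 0.402). In macrophage-like nuclei YAP1 was at 35.3, 54.6, 122 and 75.5 CPM and fell by 2.17 ± 0.21 on the log2 scale (adjusted p = 8.79e-13; 52.2% of all genes passed). In T or natural killer-like nuclei it was at 84.4, 104, 129 and 54.6 CPM and fell by 1.82 (adjusted p = 8.31e-11). No immune-like sum reached the level of any other named class, and the share of all genes with that order is not given. The higher folds in pericyte-like (0.55, adjusted p = 0.0317; 14% of all genes passed) and lymphatic endothelial-like nuclei (0.44, adjusted p = 0.0426) were lost in 2 of 12 and 8 of 13 alternatives, the first without Du'an 1 (0.51) or Nubian 2 (0.47) and the second without any 1 of the 4 goats (0.37 to 0.44).

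WWTR1 had the widest range of folds of the 8 genes. It was at 982, 819.8, 892 and 1087 CPM in blood endothelial-like nuclei (log2 fold 2.43 ± 0.16, adjusted p = 4.41e-19) and at 542, 766, 1077 and 592 CPM in lymphatic endothelial-like nuclei (2.05 ± 0.16, adjusted p = 1.24e-15). The goats of these 2 classes overlapped, and the difference between the classes did not pass (0.35 ± 0.26, adjusted p = 0.458). In T or natural killer-like nuclei WWTR1 was at 17.5, 50.2, 61.2 and 23.8 CPM, and it fell by 2.70 ± 0.26 (adjusted p = 3.18e-13). Every goat there was below every goat in every other named class, as was so for 0.761% of all genes in that class.

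In granulosa-like nuclei WWTR1 was at 156, 167, 144 and 85.5 CPM, with a log2 fold of -0.55 ± 0.20 (adjusted p = 0.0241). The mean that it is set against includes the blood (2.43) and lymphatic endothelial-like (2.05) and ciliated-like classes (1.3), which lowers the folds of the rest. Epithelial-like (-0.46) and pericyte-like nuclei (-0.34) were also below it and did not pass. The sign opposite to that of YAP1 thus depends on the classes in each mean. The granulosa-like call was lost without the goat block (-0.52, adjusted p = 0.0574), without Du'an 2 (-0.57, adjusted p = 0.0585) and without Nubian 2 (-0.40, adjusted p = 0.143). WWTR1 was also lower in theca-like nuclei, at 72.1, 126, 199 and 87.8 CPM (-1.23 ± 0.25, adjusted p = 1.33e-04; 21.4% of all genes passed), and in macrophage-like nuclei, at 127, 145, 135 and 103 CPM (-0.78, adjusted p = 0.00179). It was higher in ciliated-like nuclei, at 325 and 471 CPM in the 2 goats that had them (1.3, adjusted p = 4.80e-05). The calls in theca-like, macrophage-like and ciliated-like nuclei passed in every alternative that gave a value.

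TEAD1, the DNA-binding partner of YAP1 and TAZ, was lower in both immune-like classes, and its means in the other named classes ran from 375 to 583 CPM. It was at 98.9, 111, 100.04 and 67.6 CPM in T or natural killer-like nuclei and fell by 2.11 ± 0.18 (adjusted p = 1.89e-14). In macrophage-like nuclei it was at 94.2, 51.8, 124 and 111 CPM and fell by 2.08 ± 0.18 (adjusted p = 2.54e-14). All sums of the other named classes lay at 278 CPM or above, an order for which no share of all genes is given. TEAD1 was higher in granulosa progenitor-like (597, 510.0, 555 and 513 CPM; 0.85 ± 0.14, adjusted p = 1.43e-06), smooth muscle-like (518, 488, 638 and 579 CPM; 0.70, adjusted p = 8.02e-05; 26.2% of all genes passed) and epithelial-like nuclei (711, 572, 507 and 543 CPM; 0.53, adjusted p = 0.00535; 26% of all genes passed). In granulosa-like nuclei it was at 479.6, 453, 414 and 453 CPM with a log2 fold of 0.55 ± 0.14 (adjusted p = 0.00125), which fell to 0.25 (adjusted p = 0.0975) with RLE scaling and to 0.36 (adjusted p = 0.0551) without the filter on low counts. Its mean there, 450 CPM, was below those of pericyte-like (493), granulosa progenitor-like (544), smooth muscle-like (556), theca-like (574) and epithelial-like nuclei (583). That mean was above those of ciliated-like (375), blood endothelial-like (381) and lymphatic endothelial-like nuclei (422) and of both immune-like classes. The fold in theca-like nuclei (0.44, adjusted p = 0.0300) was lost without Du'an 2 (0.43, adjusted p = 0.0613).

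AMOTL2, the angiomotin family member that binds YAP1, was nearly uncounted in the immune-like classes. It was at 2.91, 9.32, 6.04 and 4.97 CPM in T or natural killer-like nuclei (-2.12 ± 0.30, adjusted p = 2.89e-08) and at 2.35, 5.67, 9.90 and 7.98 CPM in macrophage-like nuclei (-1.99 ± 0.30, adjusted p = 1.66e-07). Du'an 1 held a single UMI of it in each of these classes. AMOTL2 was higher in blood endothelial-like (35.1, 64.2, 33.5 and 48.3 CPM; 1.02 ± 0.20, adjusted p = 5.78e-05), granulosa progenitor-like (25.6, 47.0, 39.1 and 36.7 CPM; 0.82, adjusted p = 6.08e-04) and granulosa-like nuclei (39.2, 38.9, 29.7 and 29.3 CPM; 0.72 ± 0.18, adjusted p = 0.00115). The higher fold in smooth muscle-like nuclei (0.65, adjusted p = 0.0138) was lost without Nubian 1 (0.36, adjusted p = 0.318). In pericyte-like nuclei Nubian 2, with 39 nuclei, had no UMI of AMOTL2.

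**Figure D2:**
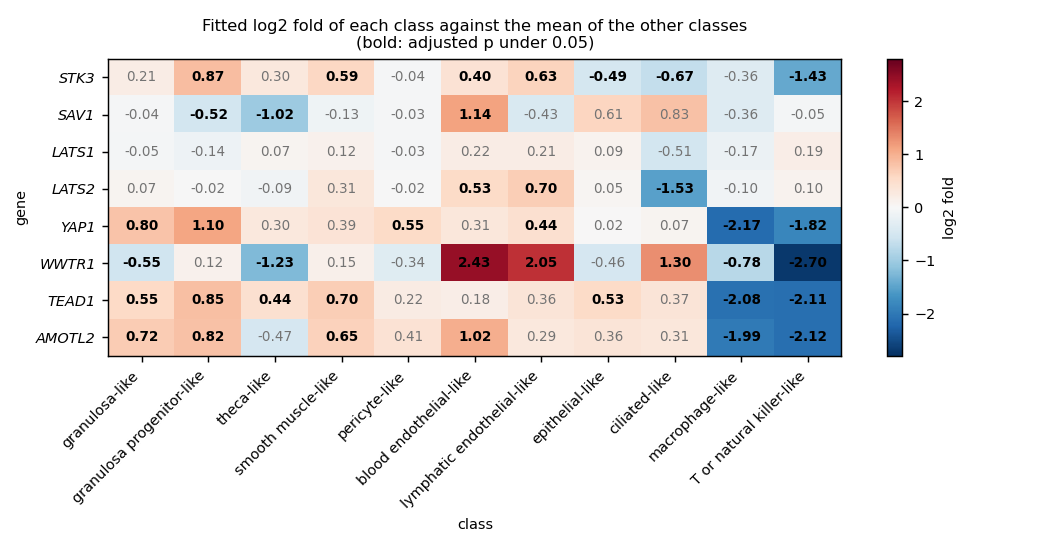
Fitted log2 fold of each gene (rows) in each class (columns) against the mean of the other named classes, as colour and number, with values in bold where the adjusted p is under 0.05. WWTR1 reaches 2.43 in the blood endothelial-like class, YAP1, TEAD1 and AMOTL2 are near -2 in both immune-like classes, and no value of LATS1 is in bold.

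The scaling of the sums matters for the granulosa-like and progenitor-like classes. The median log2 fold of all genes in granulosa-like nuclei was 0.17 with TMM, -0.09 with RLE and -0.16 with DESeq2, and 67.5%, 42.8% and 34.8% of the calls were higher. Relative to that median YAP1 was at 0.63, 0.59 and 0.65, AMOTL2 at 0.54, 0.55 and 0.61, TEAD1 at 0.37, 0.34 and 0.41 and WWTR1 at -0.72, -0.75 and -0.68 in granulosa-like nuclei. In granulosa progenitor-like nuclei the median was 0.01, -0.19 and -0.25, the share of higher calls was 59.8%, 41.1% and 34.1%, and relative to the median YAP1 was at 1.09, 1.08 and 1.13. The 3 scalings in this order gave a median of -0.29, -0.09 and -0.02 in pericyte-like, -0.23, -0.06 and -0.02 in theca-like, -0.16, -0.03 and -0.00 in ciliated-like and 0.04, -0.07 and -0.14 in smooth muscle-like nuclei. The share of higher calls moved from 53.6% to 73.9% and 77.5% in pericyte-like, from 43.0% to 59.1% and 60.3% in theca-like, from 72.5% to 59.3% and 53.6% in smooth muscle-like, from 75.5% to 68.9% and 63.2% in blood endothelial-like and from 71.4% to 65.7% and 61.4% in lymphatic endothelial-like nuclei. Every called fold of the 8 genes kept its direction under all 3.

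When the named classes were ordered by the mean CPM of a gene, 9 of 80 neighbouring pairs differed by edgeR's quasi-likelihood test. Over the same pairs 30.8% of genes differed. Each member's pairs were set by its own levels, which places like levels side by side. A low count was thus built in, and the 30.8% is no reference for it. YAP1 separated T or natural killer-like from ciliated-like nuclei (1.73, adjusted p = 2.98e-06) and did not differ between any neighbours above that step. WWTR1 had 2 steps, from T or natural killer-like to theca-like (1.33, adjusted p = 4.37e-04) and from smooth muscle-like to ciliated-like nuclei (1.04, adjusted p = 0.0101). Of all 55 pairs of classes, WWTR1 differed in 37, STK3 in 31, YAP1 in 25, AMOTL2 in 21, TEAD1 in 20, SAV1 in 16 and LATS2 in 9. The share of all genes over these 55 pairs is not given, so the counts order the members and do not set them against other genes. Between granulosa-like and granulosa progenitor-like nuclei only STK3 differed (0.60 ± 0.21, adjusted p = 0.0268), where 27.6% of all genes did.

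Across the means of the 11 classes YAP1 and TEAD1 followed each other with a Pearson's r of 0.963, TEAD1 and AMOTL2 with 0.843, and LATS1 and LATS2 with 0.856. Without the 2 immune-like classes YAP1 and TEAD1 had an r of 0.539, TEAD1 and AMOTL2 of 0.371 and LATS1 and LATS2 of 0.932. For YAP1 and WWTR1 r was 0.507 over all classes and -0.055 without the immune-like ones. These are descriptions over classes that share goats, libraries and scaling. Among all genes tested, the patterns most like that of YAP1 over the 11 classes were those of MICAL3 (r of 0.965) and TEAD1, and those most like WWTR1 were SHANK3 (0.931) and ABHD14A (0.926). For TEAD1 they were ZNF532 (0.969) and MICAL3 (0.967), for STK3 ICK (0.959) and SBF2 (0.950), and for AMOTL2 FNBP1L (0.941) and CLOCK (0.936). For LATS1 they were LOC102175755 (0.937) and FAM208B (0.934), for LATS2 ZNF106 (0.980) and ACSF2 (0.934), and for SAV1 DPP8 (0.918) and FAM177A1 (0.915).

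The share of nuclei with a UMI of a gene was read after thinning nuclei to 1000 UMIs. The median depth of classes ran from 992 UMIs in a pericyte-like sum to 6515 in a granulosa progenitor-like one. Nuclei with fewer than 1000 UMIs were left out, 2663 of 18378 in the granulosa-like and 248 of 2573 in the T or natural killer-like class. The thinned shares therefore describe the deeper nuclei. T or natural killer-like nuclei, at a median of 2223.5 to 2743 UMIs, were assumed to be the class that lacks YAP1, WWTR1 and AMOTL2. The 9 GC markers summed to 631 to 1578 CPM in that class. Whether its UMIs of these genes are its own or carried over was not tested. YAP1 was seen in 31.8% of granulosa-like nuclei (28.2 to 36.2% over goats, median depth 2532.5 to 5347.5 UMIs) and in 6.86% of T or natural killer-like nuclei (4.30 to 10.7%). WWTR1 was seen in 43.0% of blood endothelial-like, 40.0% of lymphatic endothelial-like and 11.2% of granulosa-like nuclei, against 3.88% in T or natural killer-like nuclei (2.15 to 7.44%). TEAD1 was seen in 32.4% of granulosa-like and 8.52% of T or natural killer-like nuclei. AMOTL2 was seen in 3.37% and 0.676%. LATS1 was seen in 4.19% of granulosa-like and 6.32% of T or natural killer-like nuclei, and no class was set as lacking it. Without thinning, and over all kept nuclei, the granulosa-like share of YAP1 was 63.2% and that of T or natural killer-like nuclei 17.5%.

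Within the GC-like nuclei and the progenitor-like ones, clustered again, 4 states were named: granulosa progenitor-like, granulosa cumulus-like, granulosa mural-like and cycling granulosa-like. Subclusters 3 and 13, with 2039 and 194 nuclei, stayed unnamed but were in the fit. Cumulus GCs surround the oocyte, and mural GCs line the follicle wall and make oestradiol. The 7 cumulus markers summed to 1232 to 1555 CPM in the cumulus-like, 1385 to 1628 in the cycling and 728 to 1314 in the mural-like state. They did not set the cumulus-like state apart from these. The 8 mural markers summed to 20978 to 23735 CPM in the mural-like state and to as much as 15892 in a cycling sum. The 9 cycling markers summed to 3384 to 4933 CPM in their state and to at most 544 in the other named states. Only 3 of 32 combinations of gene and state passed the test against the mean of the other states, WWTR1 and STK3 higher in the progenitor-like state and WWTR1 lower in the cycling state, while 21% of all gene and state combinations passed. Mural-like nuclei were in 3 goats (1435 in Du'an 2, 5071 in Nubian 1 and 436 in Nubian 2), and each of their 3 subclusters came to 98.6% or more from 1 goat, so the mural-like values of a goat are those of its own subcluster. Of the cycling-like nuclei, 1 of 2 subclusters came to 94.4% from Nubian 1.

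**Figure D3:**
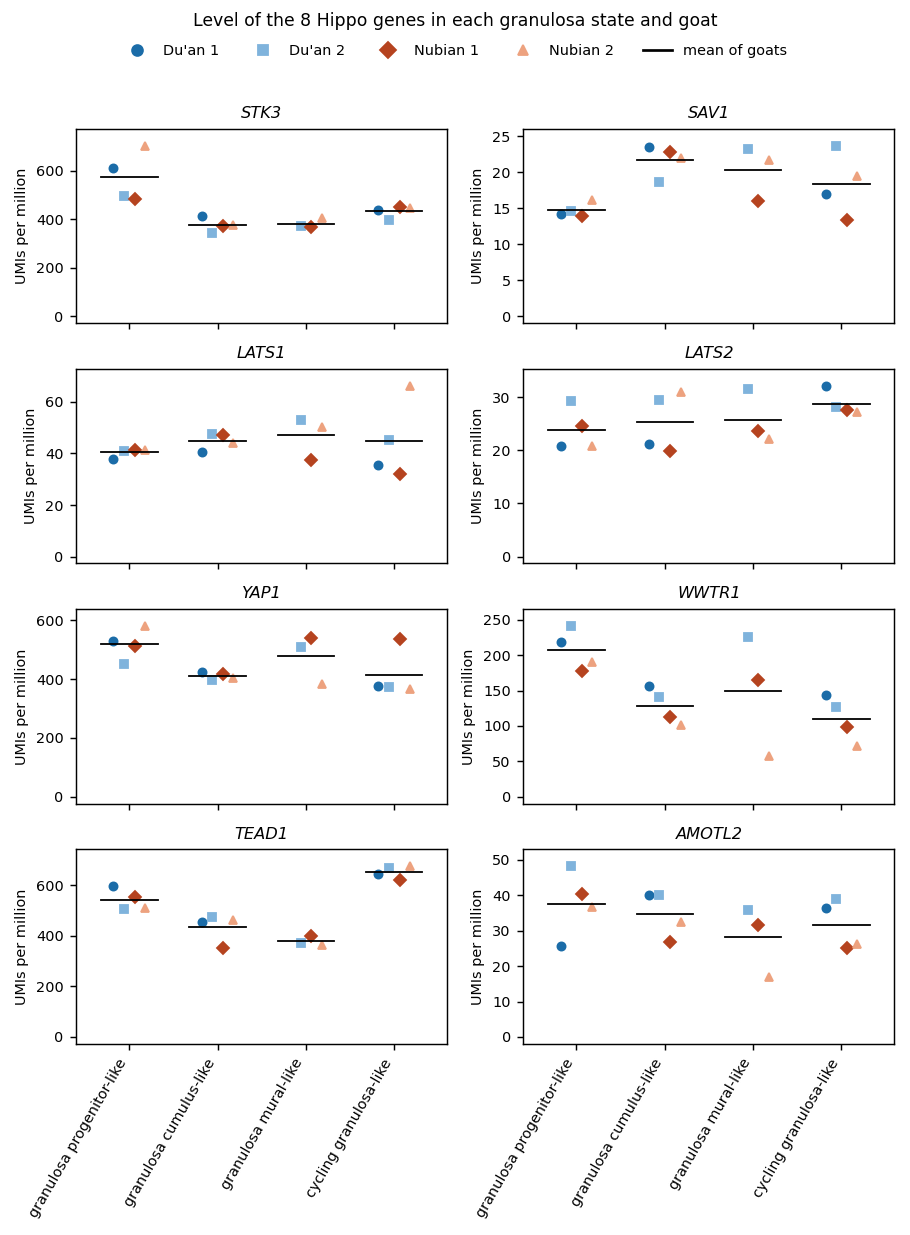
Level of each gene (y axis, CPM) in the 4 granulosa states (x axis) with 1 symbol per goat and a line at the mean of the goats. STK3 in the progenitor-like state (484 to 703) and TEAD1 in the cycling granulosa-like state (618 to 674) lie above all other states, and both Nubian goats lie below both Du'an goats for WWTR1 in the 3 states with 4 goats.

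WWTR1 was at 218, 241, 178 and 189.6 CPM in progenitor-like nuclei (log2 fold 0.78 ± 0.18, adjusted p = 0.00159), where 33.8% of all genes passed, and this call held in 13 of 13 alternatives. It was at 144, 127, 99.1 and 71.1 CPM in cycling nuclei (-0.63 ± 0.20, adjusted p = 0.0281; 17.8% of all genes passed), a call lost in 7 of 13 alternatives, among them without Du'an 1 (adjusted p = 0.0793), Du'an 2 (0.160) and Nubian 1 (0.0621). The progenitor-like sums did not overlap with the cycling ones (difference 1.06 ± 0.23, adjusted p = 8.60e-04; 33.3% of all genes passed) or with the cumulus-like ones at 157, 141, 113 and 102 CPM (0.84 ± 0.23, adjusted p = 0.00709; 25.9% of all genes passed). In mural-like nuclei WWTR1 was at 225 CPM in Du'an 2, 165 in Nubian 1 and 57.0 in Nubian 2.

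STK3 was at 613, 495, 484 and 703 CPM in progenitor-like nuclei, above every other sum of the states, as was so for 8.39% of all genes there. Its log2 fold was 0.58 ± 0.17 (adjusted p = 0.0100), and the call was lost without Du'an 1 (0.52, adjusted p = 0.0597), without Nubian 2 (0.46, adjusted p = 0.0606) and with a marker gate in place of clusters (0.20, adjusted p = 0.0967). Against cumulus-like nuclei, at 412, 345, 373 and 377 CPM, it was higher by 0.73 ± 0.21 (adjusted p = 0.0119). Beside these progenitor-like values, the 8 smooth muscle markers summed to 725 to 1584 CPM in that state and 308 to 812 in the other states, and the 7 stromal markers to 676 to 2756 against 279 to 1703. Their part in the result was not tested.

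TEAD1 was at 642, 668, 618 and 674 CPM in cycling nuclei and at no more than 596 CPM in any other state. That order held for 5.62% of all genes in the cycling state, and the fold of 0.47 ± 0.18 did not pass (adjusted p = 0.0646). YAP1 passed in no named state and no pair of named states: it was at 531, 451, 513 and 580.1 CPM in progenitor-like, 425, 396, 419 and 405 in cumulus-like and 375, 374, 535 and 367 in cycling nuclei. In mural-like nuclei it was at 511, 542 and 384 CPM, and its largest difference between states was 0.47 ± 0.25 (progenitor-like over cumulus-like, adjusted p = 0.189). LATS1, LATS2, SAV1 and AMOTL2 passed in no state either, with log2 folds from -0.39 to 0.30. No 2 neighbouring states differed for any of the 8 genes (0 of 24 pairs by edgeR's quasi-likelihood test, where 19.3% of genes did). These pairs too were set by each member's own levels, so the 19.3% is no reference for them.

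The breeds were compared within each named class and state with a sum of at least 20 nuclei in every goat. None of 94 comparisons of a member passed edgeR's quasi-likelihood test, 2 had an unadjusted p under 0.05, and 0% of all genes passed. The unnamed clusters are not in these counts. No member passed in them, while 40 of 11446 genes did in the unnamed cluster 3. DESeq2 also called none of them. With 2 goats per breed, differences of the size of the standard errors were not detectable, and the smallest adjusted p was 0.742 (STK3 in T or natural killer-like nuclei). The largest difference in size was that of YAP1 in macrophage-like nuclei, at 35.3 and 54.6 CPM in Du'an and 122 and 75.5 CPM in Nubian goats (log2 fold 1.02 ± 0.41, adjusted p = 0.919). Both Nubian goats were above both Du'an goats there, as for 21.5% of all genes.

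WWTR1 was lower in both Nubian goats than in both Du'an goats in the cycling, cumulus-like and progenitor-like states. The log2 differences were -0.58 ± 0.28, -0.52 ± 0.13 and -0.36 ± 0.22, each with an adjusted p of 0.999 or more. This order held for 16.2%, 9.97% and 10.3% of all genes in the 3 states and for 0.9% in all 3, and the states come from the same 4 goats. The goats also fill different subclusters: of the cumulus-like state, 1 came to 88.8% from Du'an 2 and 1 to 88.0% from Nubian 1, of the cycling state 1 came to 94.4% from Nubian 1, and a subcluster of 100 nuclei in the progenitor-like state came wholly from Nubian 1. Their part in these differences was not tested. In endothelial-like nuclei the breed difference of WWTR1 was 0.13 in the blood and 0.37 in the lymphatic class. The change of a class or state contrast with breed was tested as an interaction, and none of 80 class and 24 state interactions passed (0.0839% and 0% of all genes).

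**Figure D4:**
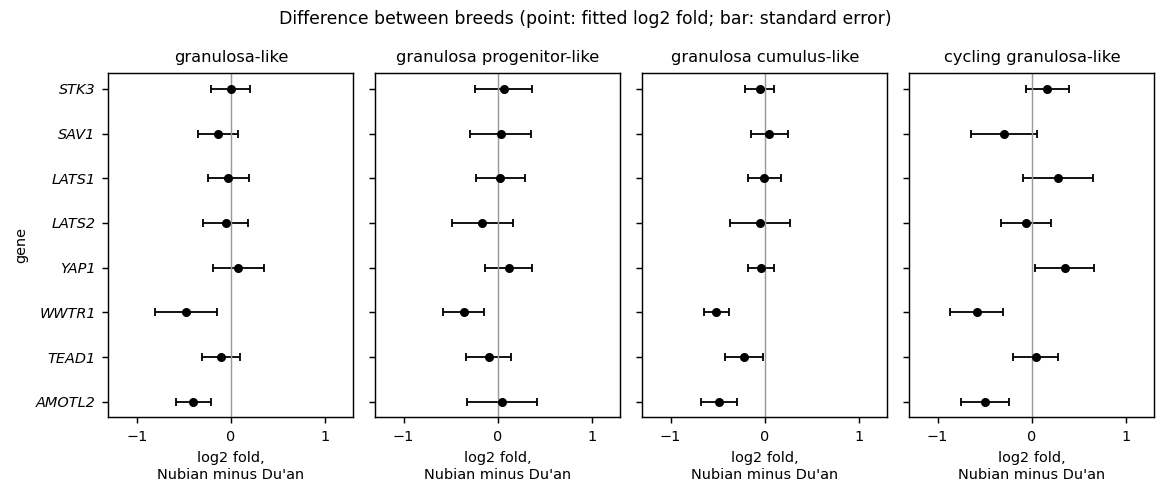
Difference between breeds (x axis, fitted log2 fold of Nubian minus Du'an goats) for each gene (y axis) in the granulosa-like class and in the 3 states with 4 goats. Points are fitted folds, and bars are approximate standard errors derived from the fold and its F statistic. WWTR1 is below 0 in all 4 panels and none of the differences passes the test.

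Other genes of the pathway were grouped in 6 lists of 64 genes, of which 63 were in the files, 60 were tested by class and 56 by state. In the progenitor-like state 33 of the 56 were higher and 2 lower, with a median log2 fold of 1.02 (0.00 over all genes), where 19.5% of all genes were higher and 14.3% lower. Of 16 known YAP and TEAD targets 12 were higher, with a median of 3.32, and the counts stayed at 29 to 34 and 11 to 13 without any 1 goat. That median is set against the other states only. Against the other classes the target median was 1.35 in granulosa progenitor-like, 1.07 in lymphatic and 1.04 in blood endothelial-like nuclei. The smooth muscle markers (725 to 1584 against 308 to 812 CPM in the other states) and the stromal markers (676 to 2756 against 279 to 1703 CPM) reached higher sums in the progenitor-like state. Both ranges overlapped those of the other states. The matching class was low in the GC markers. The part of the smooth muscle and stromal markers in these counts was not tested. ANKRD1, a cardiac ankyrin repeat protein, was at 2.33, 76.6, 26.0 and 34.4 CPM there and at no more than 0.791 in the other states (6.30 ± 0.57). RBMS3, an RNA-binding protein, was at 7462, 5788, 6438 and 4494 CPM against 83.4 to 187 (5.65 ± 0.23), and GADD45A, a stress-induced growth arrest gene, at 119, 185, 178 and 153 CPM against 0.401 to 16.4 (4.81 ± 0.36). The classical targets CCN1 and CCN2 (CYR61 and CTGF in the files), named here after their values were seen, were higher by 3.79 ± 0.40 and 3.76 ± 0.42. SIKE1, of the phosphatase complex STRIPAK that counters STK3, was lower (-1.94), as was RASSF1, an activator of STK3 (-0.79).

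**Figure D5:**
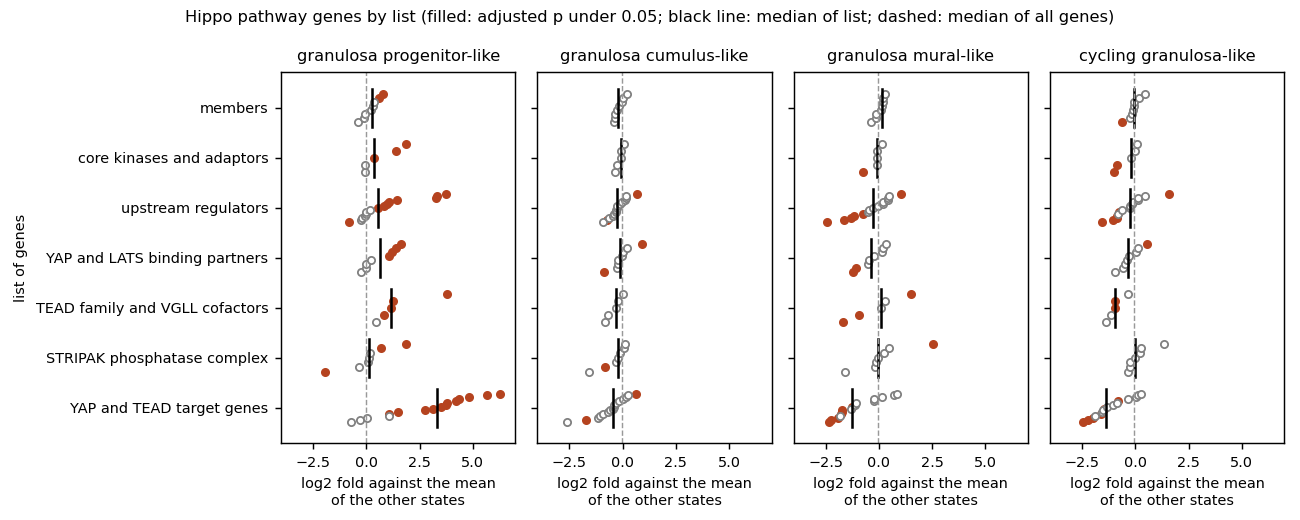
Fitted log2 fold against the mean of the other states (x axis) of the pathway genes by list (y axis), 1 panel per state, with filled points for an adjusted p under 0.05, a black line at the median of a list and a dashed line at the median of all genes. The targets in the progenitor-like state have a median of 3.32 and those in the mural-like and cycling states medians of -1.28 and -1.39. These negative medians are set against means that include the progenitor-like state.

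In the mural-like state 3 of 56 pathway genes were higher and 17 lower, where 7.53% of all genes were higher and 10.1% lower (17.6% in all), and 7 of 16 targets were lower (median -1.28). SIKE1 was at 39.3, 38.5 and 53.3 CPM there and at 2.51 to 31.6 CPM in the other states (2.52 ± 0.24), VGLL3, a TEAD cofactor, was higher by 1.51 and WWC2 by 1.05. WWC1 (KIBRA), which binds LATS kinases, was lower (-2.42 ± 0.28), as were CCDC80 (-2.33) and the receptor kinase AXL (-2.23). The count of 17 fell to 8 without Du'an 2, to 10 without Nubian 2 and to 2 with a marker gate in place of clusters. In the cycling state 2 were higher, RASSF1 (1.58) and LIMD1 (0.55), and 15 lower, led by GADD45A (-2.44), RBMS3 (-2.20) and TGFB2 (-1.99), where 10.4% of all genes were higher and 7.46% lower. In the cumulus-like state, where 7.73% of all genes were higher and 6.87% lower (14.6% in all), AJUBA (0.90), MAP4K4 (0.68) and MYOF (0.63) were higher and 4 were lower, led by RBMS3 (-1.71), LIMD1 (-0.87) and SIKE1 (-0.84). All states were set against the mean of the others, so low folds and target medians outside the progenitor-like state include its high level. Most genes called lower in the mural-like or cycling state were called higher in the progenitor-like state, among them WWC1 (3.32), AXL (4.22) and CCDC80 (3.51). Only MAP4K4 and AJUBA (mural-like) and NT5E (cycling) were not. The counts of lower genes are therefore not separate from the progenitor-like result.

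Over the classes, 17 of 60 pathway genes were higher and 16 lower in granulosa-like nuclei, where 27.7% of all genes were higher, a share near that of the list, and 13.3% lower. Among the called genes DOCK5 (2.10), NT5E (1.68) and SIKE1 (1.61) had the highest folds and RASSF5 (-3.71), TEAD4 (-3.26) and TGFB2 (-2.85) the lowest. TEAD4 was at 0.289 to 1.79 CPM there. In granulosa progenitor-like nuclei 34 of 60 were higher and 4 lower, with 13 of 18 targets higher, where 2732 of 13791 genes were higher and 1833 lower. In blood and lymphatic endothelial-like nuclei 27 and 32 of 60 were higher and 5 were lower in each, with 10 of 18 targets higher in both. There 19.7% and 17.5% of all genes were higher and 6.42% and 7.01% lower. In macrophage-like nuclei 18 of the 60 genes were higher and 26 lower, where 32.2% of all genes were higher and 19.9% lower. All 5 genes of the list of other core kinases and adaptors (STK4, MOB1A, MOB1B, STK38 and STK38L) were higher there. In T or natural killer-like nuclei 3 of these 5 were higher and 2 lower, and over all lists 10 of 60 were higher and 33 lower. Among all 13791 genes, 3908 were higher and 3237 lower in that class. No test of a list was made.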

How the data were processed

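Nuclei of 1 ovary per goat were profiled on a droplet platform (Chromium 3′ v3). The authors deposited unnormalised UMI counts per gene and nucleus, and the submitters' processing notes name Cell Ranger 5.0.0 and Seurat. Marker tables with the authors' own fold changes, p-values and shares of nuclei were not used.

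Nuclei within 2 SD of the mean UMI and gene number of their library and with at most 20% mitochondrial UMIs were kept. Doublet scoring called 153 of 48332 nuclei (0.317%, nearly all in 1 library), so it did not work. The called nuclei were removed, doublets that it missed remain, and removing the top 10% of scores was an alternative. Genes seen in 5 or more nuclei were used, and 2000 variable genes without the 8 members and the markers gave 30 principal components, 20 neighbours and Leiden clusters at a resolution of 0.8 (0.5 within granulosa) in scanpy 1.11.5. A cluster was named from 3 or more markers with at least 10 CPM and a log2 fold of 1, and from a mean log2 fold of at least 0.5 over the list. The markers that passed also had to be no fewer than those that did not. The progenitor list and the granulosa states were not held to this last limit. These naming limits were chosen after looking at the data. Counts were summed per goat and class (20 or more nuclei) and tested with edgeR 4.0.16 (quasi-likelihood, TMM, Benjamini-Hochberg, goat as a block; breeds without it) in R 4.3.3, after tests on simulated data. DESeq2 1.42.0, RLE factors, no low-count filter, other resolutions, a marker gate and leaving out each goat were alternatives. Shares of nuclei used 1000 UMIs per nucleus (500 as an alternative) and left out nuclei with fewer. Their 95% exact binomial intervals cover counting error only.

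The 8 members and all lists were chosen with earlier results of these data known. The rule for named genes took every member in every class and state (the heat map gives each class fold, and the text gives each call and the classes compared), up to 3 called pathway genes per direction in each state and in the granulosa-like class, and the 2 genes most like each member. Each goat is 1 library. The class and state fits hold a term for each goat, so their p-values measure the spread of the sums that this term leaves. The breed p-values measure the spread between goats of a breed. The labels' replicate numbers do not say that they pair goats. Over the classes and states, deviations of same-numbered goats correlated at -0.167 (granulosa-like nuclei) to 0.115 (epithelial-like nuclei). No sequence is shown, as no genome was used here.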

Additional observations from a re-analysis of the deposited data

Results flagged for a closer look

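In 104 groups of 4 goats, 3 had a single goat far from the others, where chance gives about 5.2, or 1 in 20 groups. SAV1 in lymphatic endothelial-like nuclei was at 4.95 CPM in Nubian 2 and at 17.1 to 19.1 CPM in the other goats. YAP1 in cycling granulosa-like nuclei was at 535 CPM in Nubian 1 and at 367 to 375 CPM in the others, and 1 of the 2 subclusters of that state came to 94.4% from Nubian 1. LATS1 in the granulosa progenitor-like state was at 38.0 CPM in Du'an 1 and at 40.9 to 41.3 CPM in the others. No difference between breeds in a class or state contrast passed for any of the 8 genes.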

How the results depend on the processing

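The 39 class calls became 28 to 33 without any 1 goat, 48 with DESeq2, 41 with RLE factors, 32 without the low-count filter, 33 and 36 at other resolutions, 42 without high doublet scores and 41 of 72 with a marker gate. Without Du'an 2 or Nubian 2 the ciliated-like class dropped out, and 30 and 28 of 80 combinations passed. The 3 state calls became 1 to 3 without any 1 goat (1 without Du'an 1), 8 with DESeq2 and 6 with the unnamed clusters left out of the fit. Of the 39 class calls 14 were lost in at least 1 alternative and 18 calls appeared only in an alternative, and of the 3 state calls 2 were lost and 6 appeared. No call changed direction. The breed count stayed at 0 in every alternative. Without the goat block the counts were 34 by class and 2 by state. For breeds, a replicate block on the label numbers called 0, and 0 with the numbers crossed. The share of granulosa-like nuclei with a YAP1 UMI was 31.8% at 1000 UMIs, 17.2% at 500 and 63.2% without thinning. The share at 1000 UMIs leaves out nuclei with fewer UMIs, so these sets of nuclei differ. The count of 17 pathway genes lower in the mural-like state ran from 8 to 16 without 1 goat and was 2 with the marker gate. Leaving out unnamed clusters, crossing the numbers and repeating the pathway counts were chosen after seeing the data. With 2 goats per breed and few UMIs of SAV1, LATS2 and AMOTL2, small differences were not detectable.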

Other observations

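Fibroblast-like nuclei were found in 1 goat only (406 in Nubian 1), so their levels have no replicate. YAP1 was at 468 CPM there, TEAD1 at 373, STK3 at 576 and AMOTL2 at 35.8. In the unnamed cluster 3, with 4277 nuclei, YAP1 was at 594, 463, 536 and 556 CPM in the 4 goats. By edgeR's quasi-likelihood test YAP1 (log2 fold 0.95), TEAD1 (0.63) and STK3 (0.69) were higher there, where 4062 of 13791 genes passed. Calls in unnamed clusters are not among the 39 class calls. In the unnamed cluster 12, with 1645 nuclei, WWTR1 was at 131, 143, 138 and 87.3 CPM and was called lower (-1.05), where 1866 of 13791 genes passed.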
